A study of Mus musculus with 4 samples.

Results

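Transcription factors that are used to tell regions of the gut apart, and that lie outside the Hox clusters, were followed in single epithelial cells of the mouse intestine. They are the caudal homeobox factors Cdx1 and Cdx2, the zinc finger factors Gata4, Gata5 and Gata6, the odd-skipped related factor Osr2, the intestine-specific homeobox factor Isx and the TCF/LEF family factor Tcf7l1. They were chosen by gene symbol, and all 8 were found among the 28694 genes of the count tables. The series holds 4 libraries. The 2 DC libraries held cells labelled as goblet cells from the distal colon, and the 2 Si8 libraries held cells with the same label from small intestine section 8 (labelled as its 8th section). In all 4 libraries the cells came from RedMUC298trTg mice aged 6 to 8 weeks and were sorted as live cells by presence or absence of mCherry signal, with a C57Bl6 mouse as the negative control of the sort. The labels used here do not state the mCherry state of each library or the number of mice behind it. P-values therefore measure the spread between these libraries, which may be technical.

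CDX1 and CDX2 are homeobox factors that set and keep intestinal identity, and loss of CDX2 in mice lets gastric or squamous programmes appear in the gut. GATA factors bind a GATA core sequence, and GATA4 is the classical mark of the proximal small intestine, being low or absent in the ileum and colon. ISX represses the genes for carotenoid cleavage and uptake in the small intestine, while TCF7L1 binds the targets of Wnt signalling with its TCF/LEF relatives and mostly represses them.

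Each value below is a count of unique molecular identifiers (UMIs), that is of captured RNA molecules, given as counts per 1000000 UMIs (CPM) of the cells summed. After filtering, 1831 and 4724 cells remained in DC 1 and DC 2, and 1491 and 2197 cells in Si8 1 and Si8 2, with 25509747 to 63045287 UMIs per library. Median depth per barcode was 13393 and 12162.5 UMIs in the DC libraries, against 17700 and 21127 UMIs in the Si8 libraries. Clusters were found within each tissue without the 8 factors or any listed gene. Goblet-like cells made up 60.4% and 49.5% of the kept DC cells, against 31.5% and 35.2% of the kept Si8 cells. Absorptive-like cells made up 11.1% and 19.98% of DC cells, against 9.12% and 17.9% of Si8 cells, although the labels call every cell a goblet cell. The largest DC absorptive-like clusters, DC-4 (735 cells) and DC-10 (250 cells), had Gsdmc2, Gsdmc3 and Gsdmc4 among their leading genes. These Gsdmc genes are on the naming list. The other DC absorptive-like clusters, of at most 51 cells each, were led by Car1, Car4 or Aqp8. In Si8, Si8-6 (284 cells) was led by Apoa1, Anpep and Fabp6, and Si8-8 (246 cells) by Gsdmc4, Apol10a and Dmbt1. The shares of unnamed clusters were 8.25% and 9.31% in DC, against 46.9% and 18.3% in Si8. Goblet markers led the unnamed clusters Si8-3, Si8-4 and Si8-9. Counted with the goblet-like cells, they would make 1110 of 1491 and 1149 of 2197 Si8 cells. The goblet-like shares thus depend on the naming rule, and the goblet-like classes of the 2 tissues may hold different mixes of cells. Leading genes of the largest DC goblet-like cluster (DC-1) included the antigen presentation genes Cd74 and H2-Aa. Across the 4 libraries, 45 barcode sequences occurred in 2 or more of them, of 10827 barcodes in all.

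Positions are on mouse build mm10 by GENCODE M21. Cdx2 spans chr5:147300805-147307270 (minus strand), Gata4 chr14:63198922-63271692 (minus strand) and Gata5 chr2:180325133-180334699 (minus strand). Osr2 spans chr15:35296098-35303305 (plus strand), Isx chr8:74873173-74893506 (plus strand) and Tcf7l1 chr6:72626378-72789254 (minus strand). Promoter sequences were taken from RefSeq (GRCm38.p6) for the 4 factors that differed most between the tissues and had an entry, and are shown because the counts below separate the tissues at these genes. They cover chr5:147307200-147307499 (minus strand), chr2:180334630-180334929 (minus strand), chr8:74872924-74873223 (plus strand) and chr6:72788996-72789295 (minus strand), each running 5′ to 3′ from 250 bases before the start site to 50 bases after it. Capitals mark CpG dinucleotides.

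Cdx2: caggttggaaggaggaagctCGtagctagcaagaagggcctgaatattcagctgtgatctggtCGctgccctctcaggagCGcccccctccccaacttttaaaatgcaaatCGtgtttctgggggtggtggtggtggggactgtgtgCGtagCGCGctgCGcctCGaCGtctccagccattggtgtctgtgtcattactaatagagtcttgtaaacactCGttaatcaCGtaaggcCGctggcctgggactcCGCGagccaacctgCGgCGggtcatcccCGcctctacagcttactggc

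Gata5: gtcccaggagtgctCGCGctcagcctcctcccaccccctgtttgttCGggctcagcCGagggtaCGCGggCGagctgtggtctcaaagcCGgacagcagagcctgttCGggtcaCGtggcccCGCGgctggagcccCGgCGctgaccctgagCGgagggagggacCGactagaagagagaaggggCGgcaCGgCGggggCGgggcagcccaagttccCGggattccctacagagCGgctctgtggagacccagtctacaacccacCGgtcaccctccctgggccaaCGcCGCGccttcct

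Isx: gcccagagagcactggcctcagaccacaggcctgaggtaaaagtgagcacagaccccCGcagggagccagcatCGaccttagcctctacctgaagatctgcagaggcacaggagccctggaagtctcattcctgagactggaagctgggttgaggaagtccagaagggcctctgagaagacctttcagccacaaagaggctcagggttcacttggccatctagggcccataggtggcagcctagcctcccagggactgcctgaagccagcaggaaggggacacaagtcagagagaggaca

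Tcf7l1: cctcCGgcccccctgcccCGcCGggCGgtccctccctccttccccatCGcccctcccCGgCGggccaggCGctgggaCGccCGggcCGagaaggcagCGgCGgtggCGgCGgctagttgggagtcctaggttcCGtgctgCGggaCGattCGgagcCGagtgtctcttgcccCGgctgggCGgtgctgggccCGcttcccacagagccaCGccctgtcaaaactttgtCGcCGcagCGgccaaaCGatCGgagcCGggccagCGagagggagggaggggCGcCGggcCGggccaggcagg

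The Tcf7l1 promoter holds 34 CpG dinucleotides and the Gata5 promoter 26, against 18 at Cdx2 and 2 at Isx. Over 32851 mouse promoters of the same length the median was 7, and 14.1% of them held fewer than Isx. The genes that were low or at 0 in DC thus had CpG-rich as well as CpG-poor promoters. Short motifs of 3 kinds were searched on both strands: TTTAT for CDX factors, AGATAA or TGATAA for GATA factors and CTTTGA for TCF/LEF factors. The 4 windows held 1 match, a CTTTGA or its complement in the Gata5 promoter at -168 from the start site. Among all 32851 promoters, 40.0% held the CDX motif, 18.6% the GATA motif and 16.0% the TCF/LEF motif, and a match is a description of letters, not a bound site.

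Cdx2, Isx, Osr2 and Gata5 were lower in DC than in Si8 in each class that could be compared, and Osr2 and Gata5 had no UMI in any kept DC cell. Tcf7l1 was higher in DC. Cdx1 and Gata6 were present in both tissues, and in goblet-like cells the direction of their difference depended on the scaling. Gata4 was nearly absent from both tissues. In goblet-like cells, 7 of the 8 factors passed the filter on low counts and 6 of these 7 passed the test (edgeR's quasi-likelihood test with Benjamini-Hochberg adjustment over 11504 genes, threshold 0.05). Among all tested genes 43.8% passed, so a call alone sets no factor apart from the other genes. One factor was higher in DC (background 21.7%) and 5 were lower (background 22%). Gata5 and Osr2, with no UMI in DC, passed the filter through Si8 alone, so their calls follow in part from that filter. Isx (12 and 27 UMIs in DC) and Tcf7l1 (19 and 35 UMIs in Si8) met it in their low tissue as well. In absorptive-like cells Isx and Tcf7l1 passed it through their high tissue alone, as did Isx in cycling-like cells. The calls there follow in part from the filter too. The median log2 fold change, DC minus Si8, of the 7 factors was -3.57, against 0.05 over all tested genes.

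**Figure D1:**
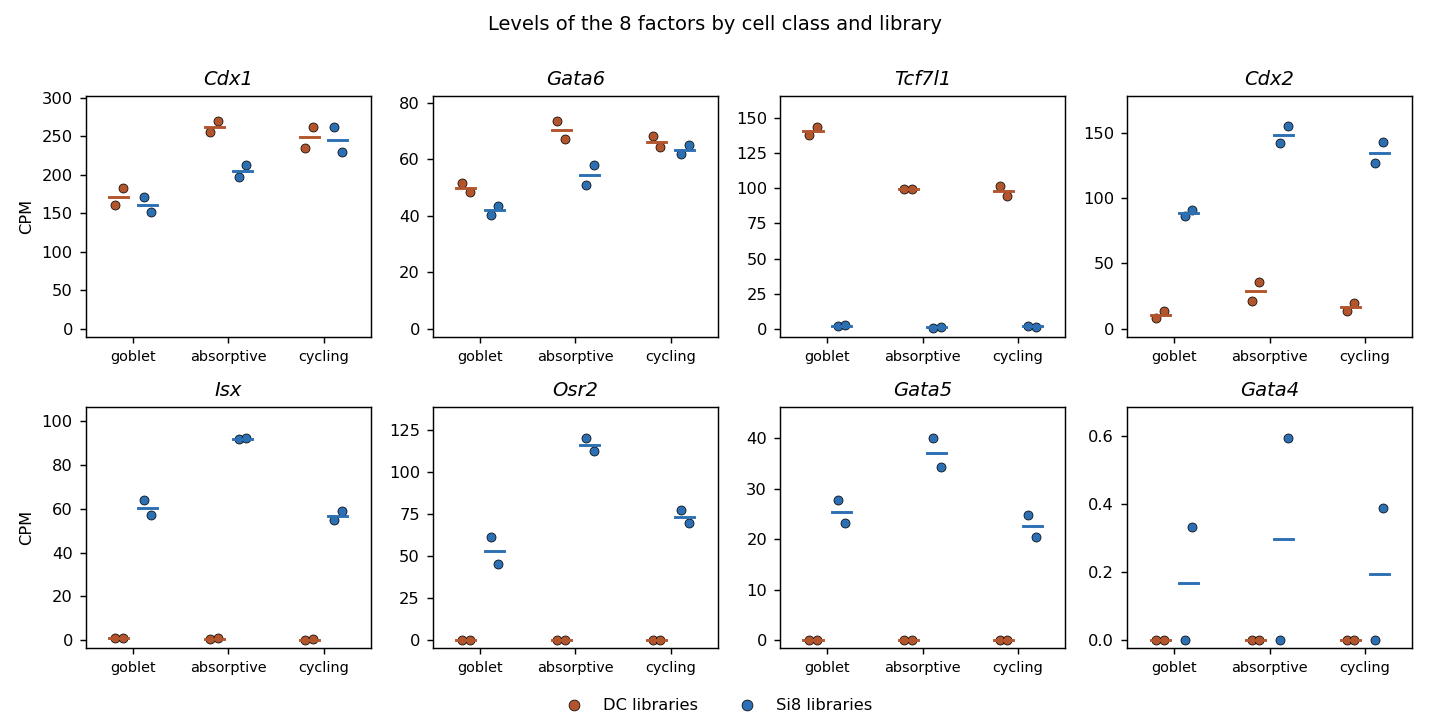
Level in CPM (vertical axis, linear) of each factor in goblet-like, absorptive-like and cycling-like cells (horizontal axis); each point is 1 library, DC to the left of Si8 in each class, and bars are means of 2 libraries. Tcf7l1 lies at 94.4 to 144 CPM in DC and at 0.673 to 2.33 CPM in Si8, while Osr2 and Gata5 lie at 0 in all DC sums; the Gata4 axis ends below 1 CPM.

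Cdx2 was the clearest difference within the caudal pair. In goblet-like cells it stood at 8.08 and 13.3 CPM in DC 1 and DC 2, against 86.1 and 90.8 CPM in Si8 1 and Si8 2. The DC libraries lay far below the Si8 libraries, with means of 10.7 ± 3.71 CPM in DC, against 88.5 ± 3.39 CPM in Si8 (SD, n = 2 each). The log2 fold change was -3.57 ± 0.22 (SE), with an adjusted p of 4.5e-05 in edgeR's quasi-likelihood test. Unlike Osr2 and Gata5, Cdx2 was not lost in the colon: UMIs were found in 8.32% and 11.9% of DC goblet-like cells, against 72.6% and 74.7% of Si8 goblet-like cells. Cells were then thinned to 5000 UMIs. Goblet-like cells with fewer UMIs were left out (105 and 131 in DC, against 7 and 0 in Si8). The thinned shares were 3.40% and 5.85% in DC, against 34.1% and 34.6% in Si8. The exact permutation test over 2 against 2 libraries gave p = 0.3333 for this difference, which is the smallest p that it can give. In the 10000-UMI thinning the shares were 6.97% and 13.4% in DC, against 53.1% and 56.6% in Si8, and the libraries stayed apart at both depths.

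Cdx2 was low in the colon in every class compared, and in both tissues goblet-like cells held less of it than absorptive-like cells. Absorptive-like cells had 21.4 and 35.7 CPM in DC, against 142 and 155 CPM in Si8, with a log2 fold change of -2.48 ± 0.21 (edgeR adjusted p = 1.1e-06). Cycling-like cells had 13.8 and 20.1 CPM in DC, against 127 and 143 CPM in Si8, with a log2 fold change of -3.07 ± 0.20 (edgeR adjusted p = 3.0e-05). The DC and Si8 libraries did not overlap in either class. Within DC, the order was absorptive-like, cycling-like and goblet-like by mean, and the lowest absorptive-like library (21.4 CPM) lay just above the highest cycling-like one (20.1 CPM). Within Si8, absorptive-like and cycling-like cells overlapped, and goblet-like cells lay below both. Of the goblet-like DC clusters with 200 or more cells, DC-7 was lowest in Cdx2 with 1.62 and 7.54 CPM, and DC-9 highest with 11.4 and 24.5 CPM. In each of the 5 such clusters DC 2 lay above DC 1.

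Cdx1, which overlaps with Cdx2 in function and lies at chr18:61018862-61036199 (minus strand), did not follow it. In goblet-like cells Cdx1 had 161 and 183 CPM in DC, against 171 and 152 CPM in Si8, so the libraries of the 2 tissues overlapped. With trimmed mean of M values (TMM) scaling, which sets the middle of all genes near no change, the log2 fold change was -0.47 ± 0.13 (edgeR adjusted p = 0.023). With library totals alone it turned to 0.09 (edgeR adjusted p = 0.54; the adjusted p ran over 0.0053 to 0.54 across 17 alternatives), and this scaling moved the median of all tested genes to 0.61 and called 67% of them. Goblet marker genes held 87824 and 87119 CPM of the goblet-like sums in DC, against 294355 and 278465 CPM in Si8, and their part in this shift was not tested. Leaving out DC 1 gave -0.37 (edgeR adjusted p = 0.097) and leaving out Si8 1 gave -0.38 (edgeR adjusted p = 0.13). After thinning to 5000 UMIs, 55.1% and 60.5% of DC goblet-like cells held a Cdx1 UMI, against 54.6% and 51.8% of Si8 goblet-like cells. In absorptive-like cells Cdx1 had 255 and 270 CPM in DC, against 198 and 213 CPM in Si8, without overlap, but its log2 fold change of 0.18 ± 0.15 did not pass (edgeR adjusted p = 0.39). The Si8 class pools cluster Si8-6, at 150 to 166 CPM, and cluster Si8-8, at 228 to 265 CPM. Si8-8 overlapped the DC cluster DC-10 (243 to 284 CPM) and lay below DC-4 (273 to 280 CPM). The part of this mix of clusters in the class values was not tested. In cycling-like cells the libraries overlapped again, at 235 and 263 CPM in DC, against 262 and 230 CPM in Si8 (log2 fold change -0.08 ± 0.14, edgeR adjusted p = 0.73). Within each tissue, goblet-like cells held less Cdx1 than cycling-like cells.

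**Figure D2:**
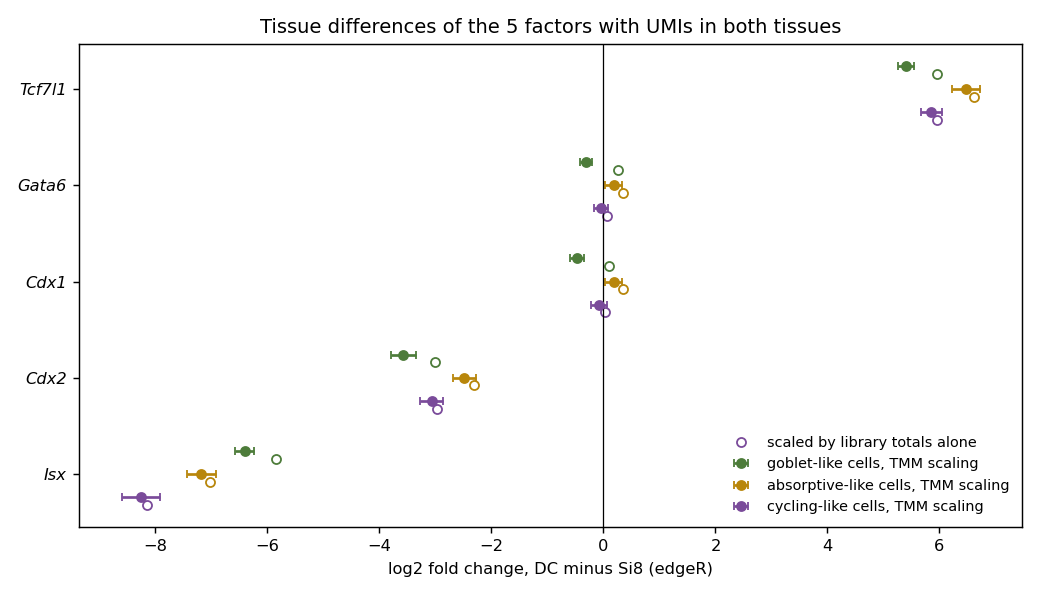
Log2 fold change, DC minus Si8 (horizontal axis), of the 5 factors with UMIs in both tissues, by cell class (colour); filled points are edgeR estimates with TMM scaling and their SE, and open points are estimates scaled by library totals alone. Tcf7l1, Cdx2 and Isx keep their direction under both scalings, while Cdx1 and Gata6 in goblet-like cells lie at -0.47 and -0.31 with TMM and at 0.09 and 0.25 with totals alone.

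Isx was close to absent from the colon. In goblet-like cells it had 0.932 and 1.10 CPM in DC, against 63.9 and 57.1 CPM in Si8. The tissues were far apart, with a log2 fold change of -6.41 ± 0.16 (edgeR adjusted p = 2.3e-06). In absorptive-like cells it had 0.340 and 0.782 CPM in DC, against 91.8 and 92.4 CPM in Si8 (log2 fold change -7.18 ± 0.26, edgeR adjusted p = 8.0e-10). In cycling-like cells it had 0 and 0.270 CPM in DC, against 54.9 and 58.8 CPM in Si8 (log2 fold change -8.25 ± 0.34, edgeR adjusted p = 4.4e-06), and the DC sums hold 5 UMIs in all. Within Si8, Isx was highest in absorptive-like cells, while goblet-like and cycling-like cells overlapped. Thinned to 5000 UMIs, with shallower cells left out, 0.400% and 0.453% of DC goblet-like cells held an Isx UMI, against 27.0% and 21.3% of Si8 goblet-like cells. Without thinning, over all goblet-like cells, the shares were 1.08% and 1.03% in DC, against 67.0% and 63.2% in Si8.

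Osr2 and Gata5 had no UMI in the kept DC cells. Osr2 had 0 and 0 CPM in DC goblet-like cells, against 60.9 and 45.1 CPM in Si8 goblet-like cells. Against a floor of 3 counts over the DC group, Osr2 was at least 661-fold lower in DC (edgeR adjusted p = 1.6e-05). Gata5 had 0 and 0 CPM in DC goblet-like cells, against 27.7 and 23.2 CPM in Si8 goblet-like cells, and was at least 317-fold lower in DC (edgeR adjusted p = 1.6e-05). Over all kept cells the bounds were 1890-fold for Osr2 and 817-fold for Gata5. A count of 0 allows a share of cells with a UMI of up to 0.164% in DC 1 and 0.0635% in DC 2 (3 counts of 1831 and of 4724 cells), which covers counting error only. Among the DC barcodes not kept, 1 of 374 in DC 2 held a single Gata5 UMI, and none in either library held Osr2. The antisense gene Gata5os, which overlaps Gata5, also had 0 and 0 UMIs in DC, against 12 and 19 UMIs in Si8.

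Both genes varied between the classes of Si8. Osr2 was highest in absorptive-like cells at 120.1 and 112 CPM, with 77.1 and 69.3 CPM in cycling-like and 60.9 and 45.1 CPM in goblet-like cells, and these 3 ranges did not overlap. Gata5 was also highest in absorptive-like cells, at 40.0 and 34.2 CPM. Its goblet-like cells (27.7 and 23.2 CPM) and cycling-like cells (24.8 and 20.4 CPM) overlapped. Thinned to 5000 UMIs, 24.6% and 19.5% of Si8 goblet-like cells held an Osr2 UMI and 13.8% and 12.1% a Gata5 UMI. The same shares of absorptive-like cells were 40.5% and 40.6% for Osr2 and 18.2% and 17.0% for Gata5. Small intestinal absorptive markers (19 and 21 of 28 with a UMI in DC, against 28 and 27 in Si8) summed to 345 and 458 CPM in DC absorptive-like cells, against 16604 and 21608 CPM in Si8 absorptive-like cells. Goblet markers summed to 34356 and 28870 CPM in DC, against 105877 and 70875 CPM in Si8. The part of either list in the levels of the factors in this class was not tested. In Si8, the unnamed cluster Si8-3, led by Ido1 and Mxd1, had lower Osr2 (37.8 and 30.3 CPM) and Isx (39.7 and 33.4 CPM) than both goblet-like clusters, while its Gata5 (42.0 and 31.0 CPM) lay above theirs in the same library. Both libraries gave these directions, but its cells were shallower, with a median of 6346 UMIs in Si8 1 and 16007.5 UMIs in Si8 2. The goblet-like cluster Si8-1 had medians of 18964 and 18946 UMIs, and Si8-2 had 19956 and 19776 UMIs. The part of depth was not tested. Paneth-like cells reached the minimum of 20 in Si8 2 alone. Their 47 cells, with a median of 91289 UMIs, had 12.8 CPM of Osr2, 4.18 CPM of Gata5, 3.95 CPM of Isx, 19.5 CPM of Cdx2, 25.5 CPM of Cdx1 and 9.06 CPM of Gata6. Each value lay below the other named classes of that library, but CPM is relative to these large totals. The 47 cells held 55 UMIs of Osr2, 84 of Cdx2 and 17 of Isx, against 676, 1363 and 856 in the 774 goblet-like cells of that library. The 47 Paneth-like cells also held 110 UMIs of Cdx1, 18 of Gata5 and 39 of Gata6, against 2274, 348 and 651 in the goblet-like cells. In UMIs per cell, Osr2 and Cdx2 were thus not lower and Gata6 was close, while Isx, Cdx1 and Gata5 were lower. Osr2 was found in 46.8% of Paneth-like against 51.0% of goblet-like cells, and Cdx2 in 70.2% against 74.7%.

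Gata6, at chr18:11052064-11085635 (plus strand), was the GATA factor found in both tissues. In goblet-like cells it had 51.6 and 48.2 CPM in DC, against 40.3 and 43.4 CPM in Si8. In CPM the DC libraries were higher and did not overlap with Si8. In all, 6 of the 7 tested factors did not overlap in goblet-like cells (2 higher in DC and 4 in Si8), against 86.1% of all tested genes in either direction. With TMM scaling the log2 fold change was -0.31 ± 0.11 (edgeR adjusted p = 0.055), and with library totals alone it was 0.25 (edgeR adjusted p = 0.076; range over 17 alternatives 0.030 to 0.47), so no direction is given. Absorptive-like cells had 73.4 and 67.1 CPM in DC, against 50.8 and 57.9 CPM in Si8 (log2 fold change 0.18 ± 0.15, edgeR adjusted p = 0.37). Cycling-like cells had 68.3 and 64.2 CPM in DC, against 61.8 and 64.9 CPM in Si8, with overlap (log2 fold change -0.05 ± 0.13, edgeR adjusted p = 0.84). Within each tissue, goblet-like cells held less Gata6 than cycling-like cells.

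Gata4 had 0 and 0 UMIs in the DC libraries, against 0 and 20 UMIs in Si8 1 and Si8 2. The 20 UMIs came from 18 cells of Si8 2, 0.819% of its kept cells (95% Clopper-Pearson interval 0.486% to 1.29%), with at most 2 UMIs in a cell. They were spread over 5 goblet-like, 6 cycling-like, 4 absorptive-like, 1 enteroendocrine-like and 2 unnamed cells, and 1 of the 18 barcodes was also present in another library. Gata4 did not pass the filter on low counts in any class, so it has no test. Whether its level differs between the tissues was not detectable at this depth.

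Tcf7l1 was the reverse of the Si8 factors. In goblet-like cells it had 138 and 144 CPM in DC, against 2.14 and 2.33 CPM in Si8. The DC libraries were far above the Si8 libraries, with a log2 fold change of 5.40 ± 0.15 (edgeR adjusted p = 2.9e-06). Absorptive-like cells had 99.2 and 99.2 CPM in DC, against 0.673 and 1.09 CPM in Si8 (log2 fold change 6.47 ± 0.25, edgeR adjusted p = 1.1e-09). Cycling-like cells had 101 and 94.4 CPM in DC, against 1.79 and 1.49 CPM in Si8 (log2 fold change 5.85 ± 0.19, edgeR adjusted p = 2.1e-06). Within DC, goblet-like cells held the most Tcf7l1 and the absorptive-like and cycling-like ranges overlapped. Thinned to 5000 UMIs, 46.9% and 49.1% of DC goblet-like cells held a Tcf7l1 UMI, against 1.08% and 1.16% of Si8 goblet-like cells. The antisense gene Gm15401, which lies inside Tcf7l1, had 58.5 and 77.2 CPM in DC, against 0.784 and 0.957 CPM in Si8. How the counting assigned reads between the overlapping pair is not stated in the labels and was not tested.

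Over all kept cells, 5 of 7 tested factors passed (background 24.9% of 13084 genes): Tcf7l1 was higher in DC, and Cdx2, Gata5, Isx and Osr2 were lower. The same 5 passed in absorptive-like cells (background 37.2% of 10989 genes) and in cycling-like cells (background 25.4% of 11780 genes). The comparisons over all kept cells and over the classes share their libraries, so they are not independent of each other. In CPM, all 7 tested factors did not overlap between the tissues over all kept cells (78.4% of tested genes). The same held for all 7 in absorptive-like cells (70.9%) and for 5 of 7 in cycling-like cells (65.9%).

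The size of the tissue difference also varied with the class. A test of the difference itself (edgeR's quasi-likelihood test of a class by tissue interaction, with the library as a block) was passed by 4 of the 5 factors with UMIs in both tissues, against a background of 27.9% of 11977 genes. For Cdx2 the log2 difference, DC minus Si8, was larger by 1.07 ± 0.13 in absorptive-like than in goblet-like cells (adjusted p = 5.7e-05), that is less negative. It was larger by 0.65 ± 0.12 for Cdx1 (adjusted p = 0.00085), by 0.51 ± 0.12 for Gata6 (adjusted p = 0.0067) and by 1.11 ± 0.36 for Tcf7l1 (adjusted p = 0.035), all by edgeR. Isx did not pass, with -0.83 ± 0.42 (edgeR adjusted p = 0.17). The part of the mix of clusters within each class in these estimates was not tested. The Cdx2 call held in 10 of 10 alternatives, with adjusted p of at most 0.011. With library totals alone the estimates were 0.67 for Cdx2, 0.25 for Cdx1, 0.10 for Gata6, 0.69 for Tcf7l1 and -1.25 for Isx, and Cdx2 and Isx alone passed. That scaling moved the median over all genes to -0.36, against 0.05 with TMM. The Tcf7l1 call was also lost without Si8 1 (edgeR adjusted p = 0.10) and without Si8 2 (edgeR adjusted p = 0.26).

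Cells were thinned to 10000 UMIs, and the number of Cdx2, Gata5, Isx and Osr2 detected in each was counted. Cells with fewer UMIs were left out, which removed 274 and 1006 goblet-like cells in DC, against 50 and 46 in Si8. These 4 factors were taken because they were the factors lower in DC, so the comparison of the tissues is a description. Of goblet-like cells, 92.8% and 86.0% in DC held none of the 4, against 14.05% and 13.05% in Si8. At least a pair of the 4 was found in 0% and 0.0751% of DC goblet-like cells, while 38.1% and 33.8% of Si8 goblet-like cells held exactly 2 and 16.2% and 13.6% held 3. The mean number per Si8 cell was 1.63 and 1.55 in goblet-like cells and 2.31 and 2.35 in absorptive-like cells. Tcf7l1 together with any of the 4 was found in 4.57% and 10.6% of DC goblet-like cells, against 2.62% and 1.79% of Si8 goblet-like cells, and in DC this was mostly Cdx2.

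**Figure D3:**
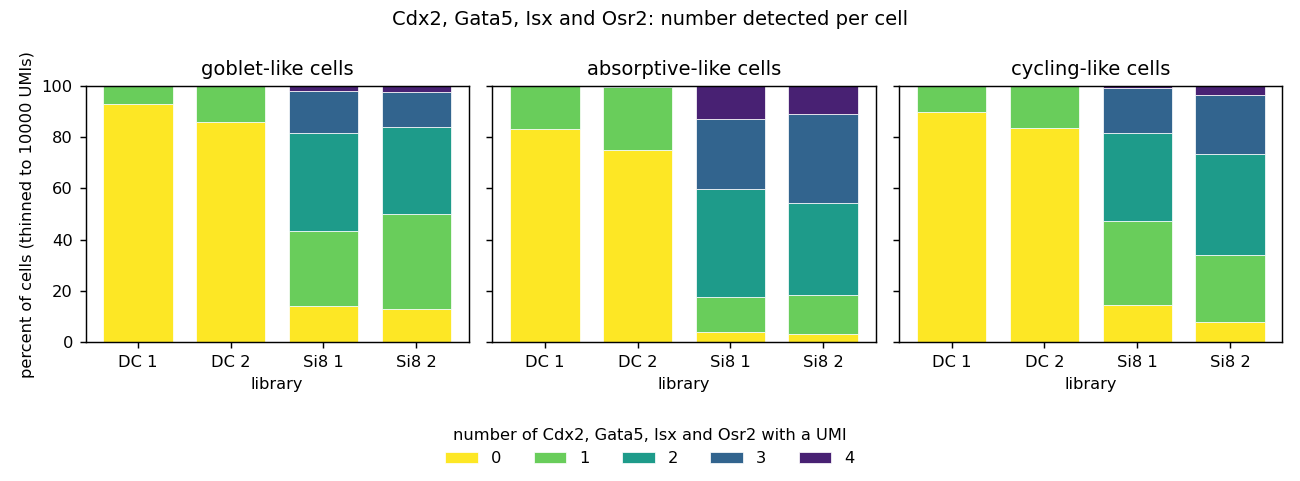
Percent of cells (vertical axis) with 0 to 4 of Cdx2, Gata5, Isx and Osr2 detected (colour) in each library (horizontal axis), by cell class. Cells were thinned to 10000 UMIs, and shallower cells were left out. Cells with none are 74.9% to 92.8% of the DC bars and 3.22% to 14.6% of the Si8 bars.

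Detection of the Si8 factors was compared from cell to cell. Among Si8 goblet-like cells at 10000 UMIs, Isx was found in 50% and 45.6% of cells with Osr2, against 41.7% and 41.6% of cells without it, higher beside Osr2 in both libraries. It was found in 45.7% and 41.7% of cells with Cdx2 and in 44.7% and 44.6% of cells without it. Gata5 was found in 23.3% and 20.6% of cells with Cdx2 and in 19.8% and 19.6% of cells without it. Osr2 was found in 42.2% and 36.2% of cells with Cdx2 and in 43.7% and 34.8% of cells without it. These are descriptions of cells that share a library. Over the 16 cluster sums of Si8 with 20 or more cells per library, the levels of Osr2 and Isx on the log2(CPM + 1) scale had a Pearson correlation of 0.86, and those of Osr2 and Cdx2 of 0.79. Gata5, which like Osr2 had no UMI in kept DC cells, had lower values of 0.26 with Osr2, 0.26 with Isx and -0.17 with Cdx2. These sums share 2 libraries and the depth of their clusters.

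The few Isx UMIs of the colon were not spread evenly over its cells. In all, 13 and 42 Isx UMIs were found in 13 and 39 cells of DC 1 and DC 2, with at most 2 in a cell. The 4 goblet-like clusters of shallow cells, DC-11, DC-12, DC-14 and DC-18, with Slfn4 and Clca1 among the leading genes of each, held Isx in 7 of 109 cells in DC 1 (6.42%, 95% Clopper-Pearson interval 2.62% to 12.8%) and in 4 of 85 cells in DC 2 (4.71%, 1.30% to 11.6%). In cluster DC-9, led by Spink1, Zg16 and Clca1, Isx was found in 1 of 81 cells of DC 1 (1.23%) and in 11 of 173 cells of DC 2 (6.36%). In the other goblet-like clusters it was found in 4 of 916 cells of DC 1 (0.437%) and 9 of 2080 cells of DC 2 (0.433%). Median depth was 3889 and 3865 UMIs in the shallow clusters, against 12614 and 10616 UMIs in the other goblet-like clusters, so the higher share was in the cells with fewer UMIs. Osr2 and Gata5 had 0 UMIs in these cells. The part of RNA from outside the cells in these Isx UMIs was not tested.

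**Figure D4:**
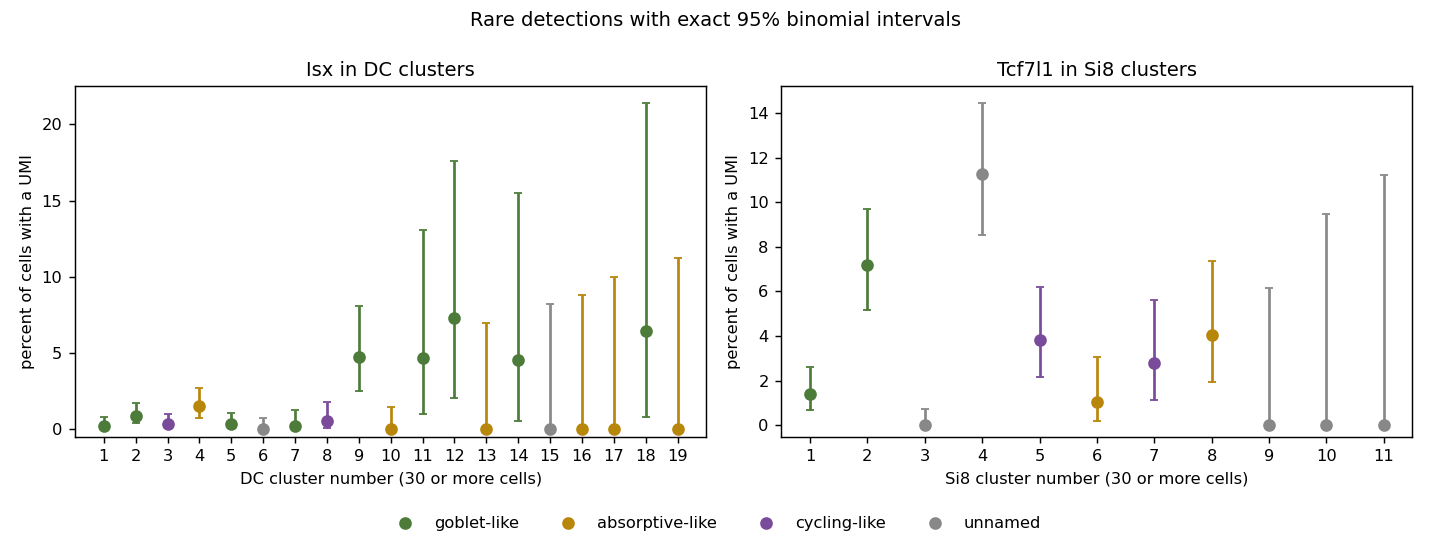
Percent of cells with a UMI (vertical axis) of Isx in DC clusters (left) and Tcf7l1 in Si8 clusters (right) of 30 or more cells, by cluster number (horizontal axis), pooled over 2 libraries; bars are exact 95% binomial intervals and colours are classes. Isx is highest in the goblet-like clusters 9, 11, 12, 14 and 18 (4.55% to 7.27%), and Tcf7l1 in Si8-4 (11.3%) and Si8-2 (7.18%).

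Tcf7l1 ran the other way over the same colonic clusters. In the largest goblet-like cluster, DC-1, led by Cd74, Meg3 and Reg4, it had 155 and 161 CPM in the 2 DC libraries. In DC-9 it had 75.5 and 80.2 CPM, and in the sum of the shallow clusters 38.0 and 44.8 CPM. Levels of Cdx1 were closer, with 162 and 185 CPM in the other goblet-like clusters, 158 and 162 CPM in DC-9 and 133 and 137 CPM in the shallow clusters. Over 24 sums of DC clusters and libraries, the Pearson correlation of Tcf7l1 and Isx on the log2(CPM + 1) scale was -0.82. It rests on sums that share 2 libraries and, in many of them, on few Isx UMIs, and the depth of the clusters moves with both genes, whose part was not tested.

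**Figure D5:**
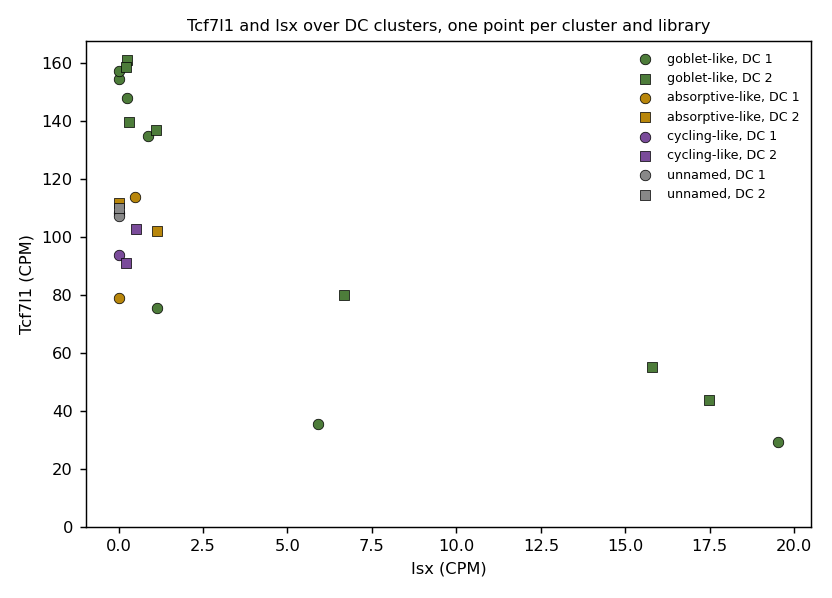
Tcf7l1 (vertical axis, CPM) against Isx (horizontal axis, CPM) in the 24 DC sums of a cluster and a library with 20 or more cells; colours are classes and symbols are libraries. The sums with the most Isx, all goblet-like, hold 29.3 to 80.2 CPM of Tcf7l1, against up to 161 CPM elsewhere.

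The rare Tcf7l1 UMIs of Si8 had a pattern too. In all, 63 and 91 UMIs were found in 60 and 82 cells of Si8 1 and Si8 2. The unnamed cluster Si8-4, led by Igkc, Igha, Jchain and Ccl9, held Tcf7l1 in 12.3% and 9.79% of its cells, and the goblet-like cluster Si8-2 in 5.22% and 8.84%. The goblet-like cluster Si8-1, of similar depth, held it in 1.81% and 1.25%. In Si8-3 it was found in 0 of 486 cells, which allows a share of up to 0.756% (95% Clopper-Pearson), at a median depth of 9118 UMIs. Plasma cell transcripts lead Si8-4, and their part in its Tcf7l1 was not tested.

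Of 41 other regional and intestinal identity factors, 26 were tested in goblet-like cells; 11 were higher and 7 lower in DC (edgeR, adjusted p below the threshold of 0.05), with a median log2 fold change of 0.12 against 0.05 over all tested genes. Over all genes tested in this class 43.8% were called, 21.7% higher and 22% lower in DC. Foxd2, a forkhead factor, had 18.3 and 18.8 CPM in DC, against 0.113 and 0 CPM in Si8, where its 1 UMI gives a ratio of 444 (exact 95% counting interval 79.5 to 17574). Nr5a2, a nuclear receptor of crypt cells, changed by 2.99 (edgeR adjusted p = 0.00091) and Sox21, an HMG-box factor, by 2.22 (edgeR adjusted p = 0.017). The Sox21 call was lost when any 1 of the 4 libraries was left out (edgeR adjusted p = 0.058 to 0.11), and with cycling-like cells included Nr5a2 fell short at 0.38 (edgeR adjusted p = 0.25). In the other direction, the T-box factor Tbx3 had 0 and 0 CPM in DC, against 50.6 and 32.0 CPM in Si8, a difference of at least 515-fold (lower in DC, edgeR adjusted p = 4.0e-05). Tbx3 passed the filter on low counts through Si8 alone. Foxd2 above and Tcf7, Car1, Sis, Scarb1, Lrat, Apoa1, Slc51a and Fabp1 below likewise passed it only through the tissue in which they are high. The calls of these genes follow in part from that filter. Prox1, a homeobox factor of endocrine progenitors, changed by -4.76 on the log2 scale, the leucine zipper factor Maf by -3.75 and the GATA cofactor Zfpm1 by -1.37 (edgeR adjusted p = 7.4e-05, 0.00086 and 0.011). The Zfpm1 call was lost in 2 of 16 alternatives, library totals alone and without Si8 2 (edgeR adjusted p up to 0.054). With library totals alone, 15 were higher and 4 lower, so the split moved with the scaling as that of all genes did (6582 higher and 1131 lower, against 2497 and 2536 with TMM).

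Of 19 relatives and corepressors of Tcf7l1, 17 were tested, 5 were higher and 3 lower in DC, and their median was -0.15. This share of calls is close to the 43.8% of all tested genes. Tcf7, a TCF/LEF relative, had 1.71 and 1.10 CPM in DC, against 0 and 0 CPM in Si8, at least 11.2-fold higher in DC (edgeR adjusted p = 0.0062), but with cycling-like cells included it did not pass (edgeR adjusted p = 0.14). The Groucho family corepressor genes split by member: Tle4 had 47.9 and 32.3 CPM in DC, against 5.97 and 4.73 CPM in Si8 (log2 fold change 2.36, edgeR adjusted p = 0.00030), while Tle1 had 17.6 and 19.1 CPM in DC, against 65.9 and 53.6 CPM in Si8 (-2.26, edgeR adjusted p = 4.4e-05). Tle6 changed by 2.499 and Tle3 by 1.09, both higher in DC (edgeR adjusted p = 0.0054 and 0.0011). The Tle6 value ran over 1.95 to 4.17 with 1 library left out, and the Tle3 call was lost when cells were thinned to 2000 UMIs (edgeR adjusted p = 0.11). The beta-catenin cofactor Bcl9 changed by -1.07 (edgeR adjusted p = 0.0062), a call lost with library totals alone and when thinned to 2000 UMIs (edgeR adjusted p up to 0.21). Aes, a short Groucho relative, changed by -0.43 (edgeR adjusted p = 0.026), which turned to 0.13 with library totals alone. The Aes call was also lost when any 1 library was left out (edgeR adjusted p = 0.061 to 0.11).

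Of 18 listed CDX-dependent genes, 15 were tested, 1 was higher and 11 were lower in DC, with a median of -1.37 (3 higher and 9 lower with library totals alone), where 21.7% of all tested genes were higher and 22% lower. Car1, a carbonic anhydrase of colonic epithelium, had 19.6 and 18.2 CPM in DC, against 0 and 0 CPM in Si8, at least 151-fold higher in DC (edgeR adjusted p = 4.4e-05). Krt20, a keratin of mature cells, had 42.9 and 32.4 CPM in DC, against 748 and 737 CPM in Si8 (log2 fold change -4.86, edgeR adjusted p = 6.4e-06). Sis, which encodes sucrase-isomaltase, had 0 and 0 CPM in DC, against 2.25 and 4.67 CPM in Si8, a difference of at least 43.1-fold (lower in DC, edgeR adjusted p = 0.00072). The meprin subunit gene Mep1b changed by -3.89 (edgeR adjusted p = 4.8e-05) and the goblet cell trefoil factor gene Tff3 by -3.00 (edgeR adjusted p = 0.00013). Tff3 and Muc2 of this list are goblet cell products as well, and Car1 and Sis are markers used to name the absorptive-like class.

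Of 24 genes of ISX control and retinoid handling, 15 were tested, 3 were higher and 6 lower in DC, and the median was -0.37 (0.19 with library totals alone), beside 21.7% higher and 22% lower among all tested genes. Scarb1, a lipid receptor gene that ISX represses in mice, had 9.09 and 6.20 CPM in DC, against 0 and 0.0667 CPM in Si8, where its 1 UMI gives a ratio of 172 (exact 95% counting interval 30.6 to 6808). Aldh1a1, which makes retinoic acid, changed by 2.71 (edgeR adjusted p = 0.0023), and the retinol saturase gene Retsat by 1.19 (edgeR adjusted p = 0.00060). Lrat, which esterifies retinol, had 0 and 0.163 CPM in DC, against 0.901 and 1.00 CPM in Si8 (log2 fold change -3.64, edgeR adjusted p = 0.0078), which rests on 4 UMIs in DC and 23 UMIs in Si8. The retinol binding protein gene Rbp2 changed by -1.80, the lipid transfer gene Mttp by -1.53 and the acyltransferase gene Dgat1 by -1.14 (edgeR adjusted p = 0.020, 0.028 and 0.0051), and Rbp2 and Mttp no longer passed with library totals alone. With 1 library left out, the log2 values ran over 2.27 to 3.82 for Aldh1a1, -6.79 to -3.03 for Lrat (too low to be tested without Si8 2) and -2.83 to -1.09 for Rbp2. The Dgat1 call was lost when cells were thinned to 2000 UMIs (-0.36, edgeR adjusted p = 0.53), and Rbp2 passed in 13 of 17 alternatives. The Mttp call was lost when any 1 library was left out (edgeR adjusted p = 0.065 to 0.27). Of 14 genes listed for GATA4, proximal and distal small intestinal genes together, 7 were tested. The list gives no direction of control by GATA4. None of the 7 was higher and 6 were lower in DC, with a median of -6.15, where 22% of all tested genes were lower. Apoa1, Slc51a and Fabp1 had no UMI in DC and passed the filter on low counts through Si8 alone. This count and median thus follow in part from that filter and from a list of small intestinal genes. Apoa1, an apolipoprotein gene, had 0 and 0 CPM in DC, against 8.79 and 12.2 CPM in Si8, a difference of at least 131-fold (lower in DC, edgeR adjusted p = 6.6e-05). Fabp6, an ileal bile acid binding protein gene, had 4.97 and 8.81 CPM in DC, against 273 and 412 CPM in Si8 (log2 fold change -6.15, edgeR adjusted p = 2.8e-05). The bile acid transporter subunit gene Slc51a and the fatty acid binding protein gene Fabp1 had no UMI in DC goblet-like cells, so Slc51a was lower there by at least 85.7-fold and Fabp1 by at least 12.7-fold (edgeR adjusted p = 0.00031 and 0.0020). Many of these are absorptive genes, and small intestinal absorptive markers summed to 68.0 and 82.1 CPM in DC goblet-like cells, against 1824 and 2394 CPM in Si8 goblet-like cells; their part was not tested.

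Over 13 sums of a library and a class, the genes with the most similar pattern were named for each factor by the Pearson correlation of log2(CPM + 1). Gata5 was nearest to Osr2 (0.996), Malrd1 and Reg3b, and Osr2 to Malrd1, Reg3b and Gata5. Isx was nearest to Lgals9 (0.990), Gata5 and Suox. Cdx2 was nearest to B2m (0.978), Bend7 and Panx1, and Tcf7l1 to Gmpr (0.992), St6galnac6 and Cbr2. Cdx1 was nearest to Ctbp2 (0.991), Rab35 and Ndufa2, and Gata6 to Setd8 (0.998), Ago2 and Ctbp2. The 13 sums include the Paneth-like cells of Si8 2, with 25.5 CPM of Cdx1 and 9.06 CPM of Gata6. The other sums had 152 to 270 CPM of Cdx1 and 40.3 to 73.4 CPM of Gata6. The part of the Paneth-like sum in these correlations was not tested. The sums share 4 libraries, and any gene that separates the tissues scores high in such a list.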

How the data were processed

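Raw UMI counts per gene and barcode of 4 droplet libraries (10x Genomics single cell 3' v2) were used as deposited; per the submitters' processing notes the authors made them with Cell Ranger 2.1.1 and build mm10. Barcodes under 500 genes or over 20% mitochondrial UMIs were left out, and the highest Scrublet scores were removed at a rate rising with the number of cells (279 of 10522), since the caller's own threshold marked 0.190%. Cells were clustered within each tissue (scanpy 1.11.5, Leiden resolution 1, 2000 variable genes, 30 components), because clusters found jointly mixed classes of the 2 tissues, and named from marker lists. Counts summed per library and class were tested with edgeR 4.0.16 (quasi-likelihood, TMM, minimum count 10, Benjamini-Hochberg over all tested genes). DESeq2 1.42.0, other scalings, filters, thinning, clusterings, classes and left-out libraries were tried as alternatives, and the edgeR step was tested on simulated data. The factors and gene lists were chosen with earlier results of these data known. Named from each list was every gene past 0.05 in goblet-like cells, up to the 4 with the largest log2 fold change in each direction, of which 1 gene is not reported here; the 3 nearest genes in pattern were taken among genes of at least 10 CPM. Identifiers were matched to GENCODE M21 (28341 of 28694, 98.8%). Depth was 26075303 to 66880457 UMIs per library. Promoters of Osr2 and Gata4 were not used here, and those of Cdx1 and Gata6 are not reported.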

Additional observations from a re-analysis of the deposited data

Results flagged for a closer look

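The tissue difference of 4 factors differed between classes by the interaction test (edgeR's quasi-likelihood test): DC minus Si8 was larger in absorptive-like than in goblet-like cells by 1.07 on the log2 scale for Cdx2, 0.65 for Cdx1, 0.51 for Gata6 and 1.11 for Tcf7l1 (adjusted p = 5.7e-05, 0.00085, 0.0067 and 0.035). The Cdx2 call held in 10 of 10 alternatives, with values of 0.67 (library totals alone) to 1.24, while the others no longer passed when scaled by library totals alone.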

How the results depend on the processing

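Calls and directions of Cdx2, Gata5, Isx, Osr2 and Tcf7l1 held under the 17 alternatives in goblet-like cells, the 12 over all kept cells and the 11 each in absorptive-like and cycling-like cells. With library totals alone, 7713 genes passed in goblet-like cells (85.3% of them higher in DC, against 49.6% with TMM) and 5171 over all kept cells (80.6%, against 51.9%); Cdx1 and Gata6 turned to 0.092 and 0.25 in goblet-like cells, 0.27 and 0.30 over all kept cells and 0.021 and 0.060 in cycling-like cells, and Aes to 0.13 in goblet-like cells. Higher shares were 64.1% against 51.2% in absorptive-like and 65.4% against 55.1% in cycling-like cells, and 18.6% against 58.3% in the interaction. Cells thinned to 2000 UMIs gave 2351, 1605, 1283 and 866 genes in goblet-like, all kept, absorptive-like and cycling-like cells and 687 for the interaction, with -0.38 (Cdx1, goblet-like, no longer passing) and 0.13 and 0.20 (Cdx1 and Gata6, cycling-like). DESeq2 gave 1571 genes for the interaction, 1161 others having no adjusted p, with Gata6 and Tcf7l1 no longer passing (adjusted p = 0.095 and 0.13); without the filter on low counts Tcf7l1 missed there too (edgeR adjusted p = 0.052). With cycling-like cells included 3227 genes passed in goblet-like cells and Cdx1 (-0.26) did not; with unnamed clusters led by goblet markers, an alternative chosen after seeing the data, Cdx1 (-0.38) did not pass and Gata6 (-0.34) did. Gata6 also passed with DESeq2's size factors in edgeR (-0.34). Leaving out 1 library gave 4057 to 4122 genes in goblet-like cells, where Cdx1 ran over -0.57 to -0.37 and Gata6 over -0.37 to -0.26, and 1411 to 4060 over all kept cells (1549 without DC 1, 1411 without DC 2); in cycling-like cells Cdx1 ran over -0.19 to 0.020 and Gata6 over -0.10 to 0.015. The cause of these changes was not tested, beyond the smaller counts that thinning leaves.

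With the replicate number as a block, 5918 genes passed in goblet-like cells and Gata6 passed with -0.31 (edgeR adjusted p = 0.030); the block changed no other call of a factor. The labels do not say that a number marks shared animals, and with 2 pairs of numbers no pairing is read from the data (correlation of deviations 0.20).

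The share of cells with a UMI turned for Cdx1 and Gata6 in cycling-like cells to 2.32 and 1.90 percentage points (DC minus Si8) at 2000 UMIs, and for Gata6 to 3.45 at 10000 UMIs; with barcodes as deposited it was -0.87 for Cdx1 and -6.40 for Gata6 over all of them. A minimum of 50 cells per library and class could not change the levels, since every sum used already held more, except that of Paneth-like cells, which it removed. Not run were a comparison of stem-like cells, since no cluster was so named, and one of each goblet-like cluster, since clusters belong to 1 tissue.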

Other observations

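Too few enteroendocrine-like cells were kept for a sum of 20 cells in any library (4 and 15 in DC, 4 and 12 in Si8), so their values stand as descriptions. Cdx2 had 2 and 8 UMIs in DC 1 and DC 2 (2 of 4 and 4 of 15 cells), against 12 and 70 UMIs in Si8 1 and Si8 2 (4 of 4 and 12 of 12 cells). Osr2 had no UMI in the DC cells, against 6 and 41 UMIs in 2 of 4 and 11 of 12 Si8 cells. Tcf7l1 had 5 and 10 UMIs in 2 of 4 and 5 of 15 DC cells, and none in the Si8 cells, which have median depths of 10814 and 31991 UMIs.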
